A study of Mus musculus with 8 samples.

Results

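Here 41 genes of the Fanconi anemia and homologous recombination pathways were followed in Prmt5-null and control B cells. They were chosen by name from a list of pathway genes, and all 41 were found among the 39017 genes of the expression table. All 41 also passed the filter on low levels, with mean normalized counts between 293 and 14769. RNA-seq had been done on splenic B cells of C57BL6/J mice at day 4 of culture on 40LB feeder cells, a fibroblast line that displays CD40L and secretes BAFF, with IL-4 at 1 ng/mL. Such cultures yield iGBs, activated B cells that take on features of germinal center B cells. The Prmt5-null group held 4 libraries of Prmt5 F/F Cγ1-cre cells and the control group 4 libraries of Cγ1-cre cells with an intact Prmt5, so that both groups carried the Cre transgene. Cγ1-cre is switched on by activation, and cells that have not recombined the floxed allele can remain in the Prmt5-null cultures. Libraries carry the names of their labels, and values are listed in the order PRMT5-10617, PRMT5-10618, PRMT5-10770 and PRMT5-10771 for Prmt5-null and CTRL-10370, CTRL-10596, CTRL-10597 and CTRL-10650 for control.

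The Fanconi pathway repairs DNA interstrand crosslinks that stall replication forks. Its core complex, with Fancl as the E3 ubiquitin ligase, attaches ubiquitin to Fancd2 and Fanci, nucleases then unhook the crosslink, and the resulting break is repaired by homologous recombination, in which Brca2 acts on resected DNA. Activated B cells depend on these pathways because they divide fast and because antibody diversification by the deaminase AID leaves lesions and breaks in their DNA. Prmt5 is the main enzyme for symmetric arginine dimethylation, and the Sm proteins of the spliceosome are among its best known substrates, so that both the level and the splicing of each transcript were examined.

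Prmt5 itself was measured first. Its normalized counts were 1291, 1994, 1060.3 and 1808 in the Prmt5-null libraries and 11084, 11657, 11267 and 13088 in controls, with no overlap. The means were 1538 ± 436 and 11774 ± 908 (SD, n = 4 each; log2 fold change -2.98 ± 0.17 (SE), adjusted p = 6.14e-06; exact two-sided permutation p = 0.0286, the smallest that 4 against 4 libraries allow). These counts cover all exons of the gene, including any outside the floxed segment. Libraries held between 36731721 and 50366174 reads on genes, and the ranges of the groups overlapped. Pan-B cell genes were abundant in all 8 libraries, with 1 of 7 markers past the test. That marker, Cd79a, was lower in Prmt5-null, with means of 8114 and 13526 in control (log2 fold change -0.74). Germinal center-like markers gave 1 gene higher (Fas) and 1 lower (S1pr2) of 5, and 2 of the 4 tested plasma cell markers were lower (Prdm1 and Xbp1). Fibroblast genes were higher in 3 of 9 tested (Col3a1, Col1a2 and Sparc), with summed levels of 7161 to 11903 in Prmt5-null and 4715 to 8190 in control. All 9 had a positive log2 fold change, with a median of 0.72. Of the T cell markers only Lck, which B cells can also express, was tested, and it was lower, while the defining gene Cd3e was at 0 in every library. Myeloid genes summed to at most 297.5 in any library, with 1 of 3 tested higher (Emr1). In bulk RNA, fewer cells of a type and less RNA per cell cannot be told apart, and the part that feeder-derived RNA plays in the values below was not tested.

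The first question was whether the transcripts of these genes were present at other levels without Prmt5. Of the 41 genes, 8 were lower and 1 was higher in Prmt5-null iGBs, and 32 did not pass the test (limma on log2 of the normalized count plus 1, adjusted p below 0.05 over the 16250 genes tested). Among all genes tested, 13.8% passed, 7.33% lower and 6.51% higher. With a further limit of 1.5-fold, Fancl and Brca2 were lower and no gene was higher, against 2.99% and 3.49% of all genes. The median log2 fold change of the 41 genes was -0.13, beside 0.0024 for all genes tested, and 27 of the 41 values were negative. In 11 genes every Prmt5-null library was below every control library, and in 2 (Nbn and Fan1) above, whereas 19.8% of all genes tested were without overlap in either direction. Changes were small in size: the median absolute log2 fold change was 0.17 for these genes and 0.19 for all genes.

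**Figure D1:**
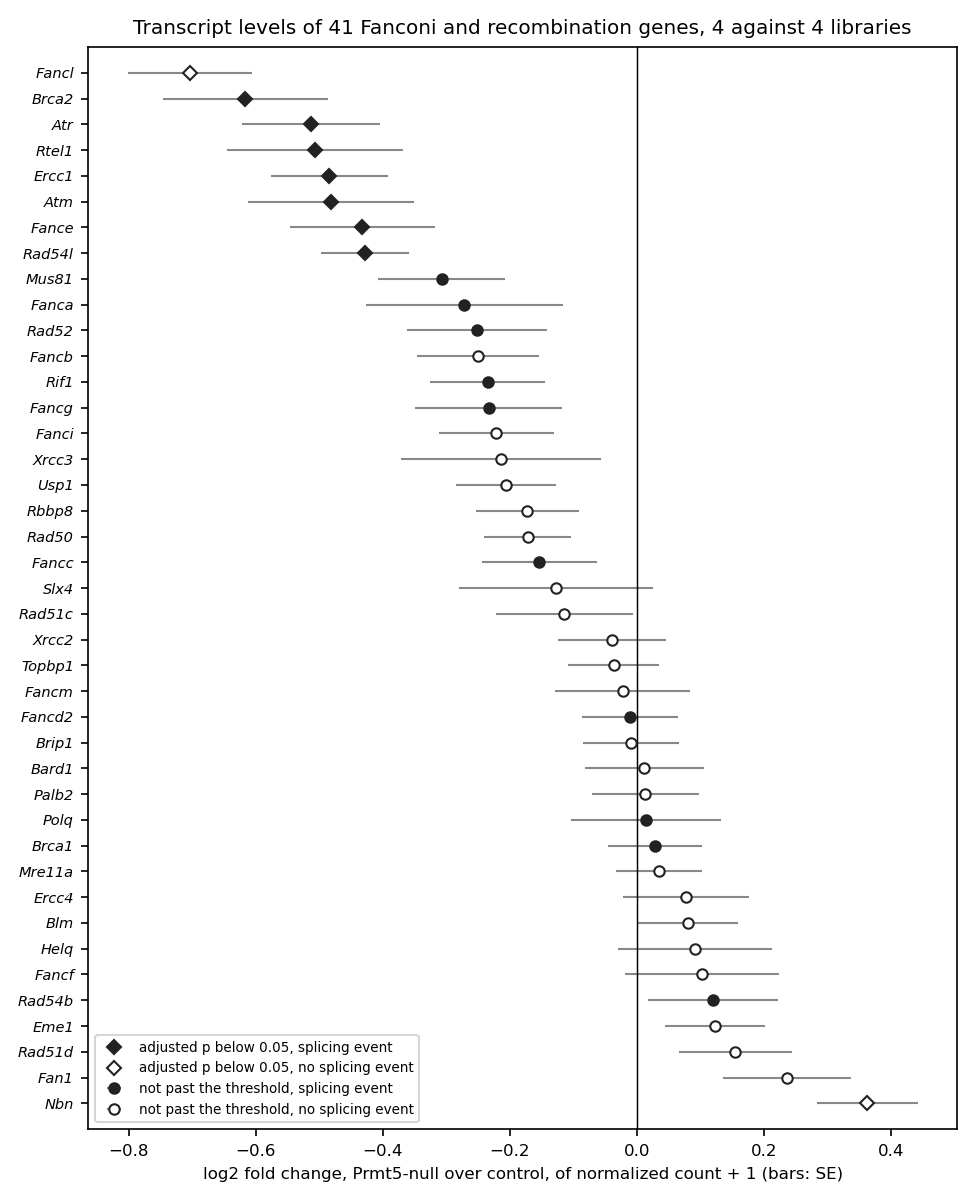
Log2 fold change of each of the 41 genes (horizontal axis, Prmt5-null over control, bars: SE, 4 against 4 libraries). Diamonds mark genes with an adjusted p below 0.05 and filled symbols those with a splicing event, and 7 of the 8 diamonds left of 0 are filled.

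Among the 8 genes of the Fanconi core complex, Fancl and Fance fell and the other 6 did not pass the test, with log2 fold changes between -0.70 and 0.10 in all. Fancl, the ligase that ubiquitinates Fancd2, had 579, 556, 709 and 610.0 normalized counts in the Prmt5-null libraries and 1029.7, 972, 1037 and 946 in controls. All 4 Prmt5-null values were below the lowest control (log2 fold change -0.70 ± 0.098 (SE), adjusted p = 0.000769). Fancl, on chr11:26386135-26471876 of GRCm38, shares exonic bases with Vrk2 on the other strand, and Vrk2 did not pass the test (log2 fold change 0.029, adjusted p = 0.871). The strand setting of the counting was not given in the sources used here, so reads from such overlaps may not be told apart. Fance, which ties the core complex to Fancd2, had 419, 457, 514 and 435 counts without Prmt5 and 619, 719, 545 and 588 with it, again without overlap. Its fall (log2 fold change -0.43 ± 0.11 (SE), adjusted p = 0.0267) lost the call when Prmt5-null library PRMT5-10617 or PRMT5-10771 or control library CTRL-10370 or CTRL-10596 was left out, with an adjusted p of up to 0.082.

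The subunits Fanca, Fancg and Fancc did not pass the test on their levels, although each carried a splicing event described below. Fanca had 1955, 2385, 1343 and 1813 counts in Prmt5-null and 1974, 2485, 2497 and 1970.0 in control, and the groups overlapped (log2 fold change -0.27 ± 0.15 (SE), adjusted p = 0.27). Fancg, an adaptor that binds Fanca, had 859, 991, 731 and 831 counts without Prmt5 and 967, 1151, 1024 and 868 in controls (log2 fold change -0.23 ± 0.12 (SE), adjusted p = 0.203). Fancc, which pairs with Fance in the complex, had 633, 682, 674 and 666 counts in Prmt5-null and 736, 780.3, 781 and 663 in control (log2 fold change -0.15 ± 0.091 (SE), adjusted p = 0.286). The ranges of Fancg and Fancc overlapped between the genotypes. The remaining core genes were Fancb (-0.25), the DNA translocase Fancm (-0.023) and Fancf (0.10, all log2 fold changes), none past the test.

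The substrates of the core complex did not pass the test. Fancd2 had 3519, 3586, 3394 and 3509 counts in Prmt5-null libraries and 3856, 3476, 3646 and 3174 in controls, with means of 3502 ± 79.7 and 3538 ± 288 (log2 fold change -0.011 ± 0.076 (SE), adjusted p = 0.944). Its partner Fanci had a log2 fold change of -0.22 (adjusted p = 0.129). Usp1, which removes ubiquitin from Fancd2, had the highest level of the 41 genes per kb of exon in controls, 1829 normalized counts per kb. Its libraries gave 6109.7, 5517, 6279 and 5748 counts in Prmt5-null and 7235, 6149, 7266 and 6663 in control, with overlap (log2 fold change -0.21 ± 0.079 (SE), adjusted p = 0.105).

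Of the 6 genes for crosslink nucleases and their scaffold, Ercc1 fell and 5 did not pass. Ercc1, the partner of the endonuclease Ercc4 (Xpf), had 673, 612, 625 and 583 counts in Prmt5-null and 868, 903, 789 and 931 in control, with all Prmt5-null values below all controls (log2 fold change -0.48 ± 0.092 (SE), adjusted p = 0.00517). Ercc4 itself had a log2 fold change of 0.077 (adjusted p = 0.648). Ercc1 shares exonic bases with Cd3eap on the other strand, which did not pass the test (log2 fold change -0.034, adjusted p = 0.884). Mus81, which cleaves stalled forks with Eme1, had 909, 953, 794 and 936 counts without Prmt5 and 1121, 1278, 1034 and 1020.0 with it. Its groups did not overlap, but it missed the threshold (log2 fold change -0.31 ± 0.10 (SE), adjusted p = 0.0624). It passed in DESeq2, where 3075 of all genes passed, beside 2249 in the main fit. The study names 2 experiments that the labels do not tie to libraries, and with the experiment as a block Mus81 passed in 3 of its 18 possible placements (lowest adjusted p = 0.0388). Efemp2, on the other strand at Mus81, was higher in Prmt5-null (log2 fold change 0.78, adjusted p = 0.0203). Eme1 had a log2 fold change of 0.12 and the scaffold Slx4 of -0.13. The nuclease Fan1 had the lowest level of the 41 genes per kb of exon in controls, 53.9. Its counts were 377, 410.4, 358 and 399 in Prmt5-null and 335, 327, 321 and 325 in control, higher without overlap but not past the test (log2 fold change 0.24 ± 0.10 (SE), adjusted p = 0.145).

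Brca2 was the gene of the BRCA group that fell, and Brca1, Bard1, Palb2 and Brip1 did not pass. Brca2 counts were 1784, 1907, 1328 and 1782 in the Prmt5-null libraries and 2610.5, 2169.9, 3106 and 2530.0 in controls, so that the highest Prmt5-null value lay below the lowest control (log2 fold change -0.62 ± 0.13 (SE), adjusted p = 0.00851). The fall was under 1.5-fold without Prmt5-null library PRMT5-10770 or without control library CTRL-10597, where only Fancl kept that call. Brca1, a ubiquitin ligase that acts at resection, had 5234, 5062, 4629 and 5241 counts in Prmt5-null and 4969, 4565, 5273 and 4973 in control (log2 fold change 0.028 ± 0.074 (SE), adjusted p = 0.841). Its partner Bard1 (0.011), the Brca2 anchor Palb2 (0.013) and the helicase Brip1 (-0.0092) had log2 fold changes close to 0.

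In the group of Rad51c, Rad51d, Xrcc2, Xrcc3, the annealing factor Rad52 and the translocases, Rad54l fell and 6 genes did not pass. Rad54l, a motor protein of homologous recombination, had 2431, 2260.2, 2373 and 2406 counts without Prmt5 and 3278, 3155, 3312 and 3004 with it, with a small spread inside each group and no overlap (log2 fold change -0.43 ± 0.069 (SE), adjusted p = 0.00193). It shares exonic bases with Lrrc41 on the other strand (log2 fold change 0.11, adjusted p = 0.422). Its relative Rad54b had 1175, 1430.2, 1180.4 and 1421 counts in Prmt5-null and 1212, 1268, 1268 and 1037 in control (log2 fold change 0.12 ± 0.10 (SE), adjusted p = 0.474). Reads of Rad54b share exonic bases with Fsbp on the same strand, whose log2 fold change was -0.065 (adjusted p = 0.765). The annealing factor Rad52 had 429.6, 391, 395 and 475 counts without Prmt5 and 463, 508, 479 and 563 with it, which overlapped in a narrow range (log2 fold change -0.25 ± 0.11 (SE), adjusted p = 0.15). Rad51c (-0.11), Rad51d (0.15), Xrcc2 (-0.039) and Xrcc3 (-0.21) had log2 fold changes on either side of 0, none past the test.

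The only gene that rose was Nbn, a subunit of the complex with Mre11a and Rad50 that senses breaks and starts resection. Nbn had 2857, 3018, 3105 and 2689 counts in the Prmt5-null libraries and 2501, 2176, 2228 and 2172 in controls, all Prmt5-null values being higher (log2 fold change 0.36 ± 0.079 (SE), adjusted p = 0.0105). Its partners did not pass the test: Mre11a had a log2 fold change of 0.035 (adjusted p = 0.779) and Rad50 of -0.17 (adjusted p = 0.119). Rbbp8, the gene of the resection factor CtIP, had a log2 fold change of -0.17 (adjusted p = 0.181).

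Among the helicases, Rtel1 fell, whereas Blm (0.08) and Helq (0.092) did not pass the test. Rtel1, which dismantles recombination intermediates and protects telomeres, had 2757, 2972, 1826 and 2334 counts without Prmt5 and 3295, 3839, 3709 and 3033 with it. All Prmt5-null values were below the controls, and PRMT5-10770 was the lowest (log2 fold change -0.51 ± 0.14 (SE), adjusted p = 0.0318). The call was lost without Prmt5-null library PRMT5-10771, without control library CTRL-10370, CTRL-10596 or CTRL-10597, or with no intensity trend, with an adjusted p of up to 0.094. Polq, the polymerase of an error-prone end joining route, had 4914, 5286, 3939 and 5193 counts in Prmt5-null and 4014, 4628, 5699.7 and 4827 in control (log2 fold change 0.014 ± 0.12 (SE), adjusted p = 0.956). Rif1, which restrains resection and is needed for class switching, had 7545, 8496, 7433 and 9078 counts in Prmt5-null and 9042, 8813, 10752 and 9690.4 in control, with overlap (log2 fold change -0.24 ± 0.09 (SE), adjusted p = 0.107). It passed in 1 of the 18 placements of the experiment as a block (adjusted p = 0.0333).

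Both apical checkpoint kinases were lower. Atr, which responds to stalled forks, had 3354, 4047, 2728 and 3598 counts in Prmt5-null and 4925, 4542, 5235 and 4716 in control, without overlap (log2 fold change -0.51 ± 0.11 (SE), adjusted p = 0.00916). Atm, which responds to double-strand breaks, had 4313, 6181, 3983 and 5471 counts in Prmt5-null and 6503, 6350.3, 7889.6 and 6769 in control (log2 fold change -0.48 ± 0.13 (SE), adjusted p = 0.0308). Its highest Prmt5-null value, in PRMT5-10618, was just below its lowest control. The Atm call was lost without Prmt5-null library PRMT5-10617, without any of the 4 control libraries in turn, or with no intensity trend, with an adjusted p of up to 0.087, and in 1 of the 18 placements of the experiment as a block (adjusted p = 0.0510). Topbp1, the Atr activator, had a log2 fold change of -0.037 (adjusted p = 0.779). Without Prmt5-null library PRMT5-10618, Atm, Atr and Rtel1 joined Fancl and Brca2 at 1.5-fold. Library PRMT5-10770 was the lowest of all 8 libraries in 16 of the 41 genes.

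**Figure D2:**
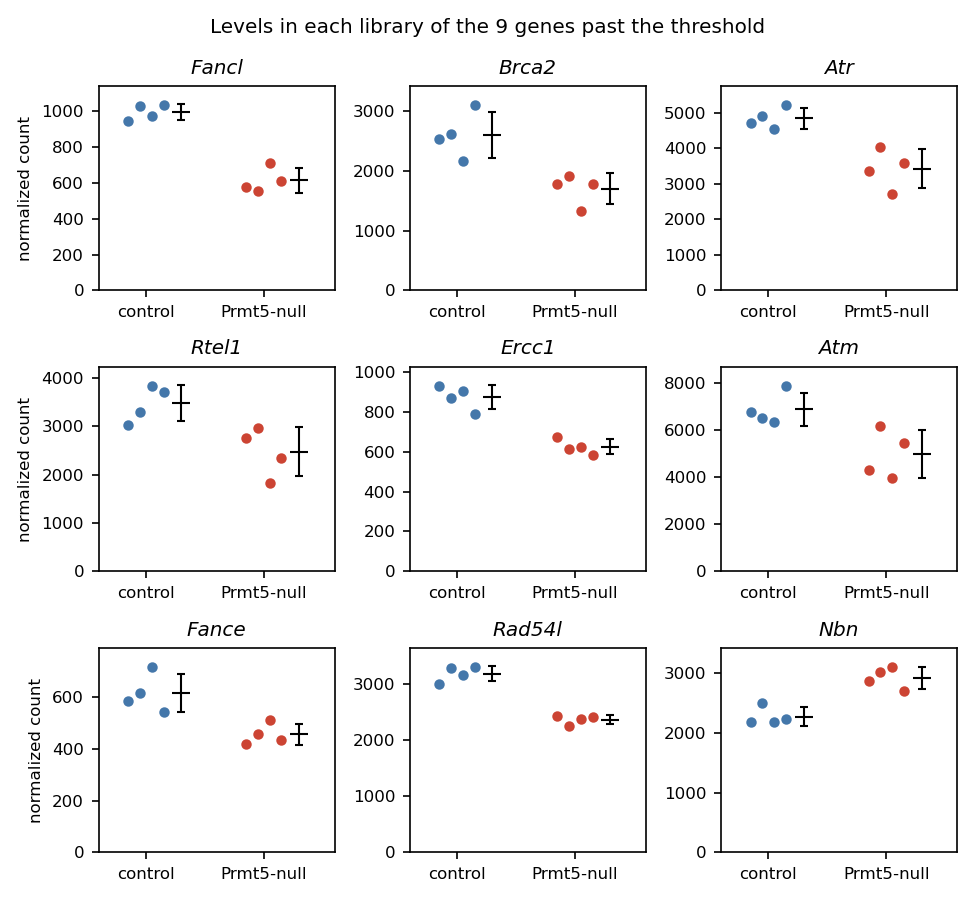
Normalized count (vertical axis, from 0) in each library of the 9 genes with an adjusted p below 0.05, with 4 control and 4 Prmt5-null points per gene and the mean ± SD beside them. The Prmt5-null points lie below all control points in 8 genes and above them in Nbn.

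Other genes of these pathways, outside the 41, were read from a list of 54 names, of which 49 were in the table and tested. Of these, 4 were lower and 1 was higher, and their median change was -0.027 on the log2 scale. Lower were Eme2, another partner of Mus81 (log2 fold change -0.73 ± 0.17 (SE), adjusted p = 0.0128), the histone H2afx, phosphorylated at breaks (log2 fold change -0.52 ± 0.12 (SE), adjusted p = 0.0154), the ubiquitin ligase Rad18 (log2 fold change -0.35 ± 0.084 (SE), adjusted p = 0.0184) and the helicase Mcm8 (log2 fold change -0.33 ± 0.09 (SE), adjusted p = 0.0313). Higher was the fork protection gene Timeless (log2 fold change 0.31 ± 0.067 (SE), adjusted p = 0.00979). The count of 5 dropped to 2 without PRMT5-10771 and to 3 without CTRL-10370 or CTRL-10597. Of 28 cell cycle genes, 5 were lower (Ccne1, E2f8, Top2a, Mcm7 and Cdc6) and none was higher, with a median of -0.063; for the 41 genes, the part of a difference in cycling was not tested.

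The second question was whether the transcripts of these genes were spliced differently. The deposited tables of splicing events give, for each gene and event type, the event with the smallest p, as an inclusion level (the share of transcripts that keep a sequence, from 0 to 1) in 4 control and 4 Prmt5-null samples, which the tables do not tie to named libraries. The authors had chosen these rows for their difference in the same values, and the study had singled out DNA repair genes from them, so that they are described here without a test. The genotype of either set of 4 samples is not named with the events. Control was taken as the first set, because the study's legend gives inclusion differences as control over knockout. An event was counted when the mean levels differed by at least 0.1. Of the 41 genes, 17 (41.5%) carried 26 events, with 1 event in 10 genes, 2 in 6 genes and 4 in Fancg. Of all 13300 genes whose mean count exceeded 50, 11.4% carried an event. The 41 genes have more exons than most, with a median of 16 in their longest transcript beside 7 for all genes tested. Among genes with at least 16 exons, 12 of 22 of these genes and 21.2% of all genes carried an event, and with fewer exons 5 of 19 and 9.06% did. That limit, the median of the 41 genes, was chosen after the data were seen. With at least 20 reads on the event in each sample, 14 genes kept an event (34.1%, against 7.67% of all genes). With a difference of at least 0.25, 5 genes kept one, against 3.15% of all genes. In 9 genes the 4 and 4 levels of an event lay apart, against 6.08% of all genes.

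Events fell into 13 skipped exons, 6 retained introns, 3 pairs of mutually exclusive exons, 3 alternative 5′ splice sites and 1 alternative 3′ splice site. Exon inclusion was lower without Prmt5 in 10 of the 13 skipped exons, beside 67.0% of the 910 skipped exon events of all genes. Intron retention was higher in 5 of the 6 retained introns, beside 87.2% of the 337 of all genes.

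**Figure D3:**
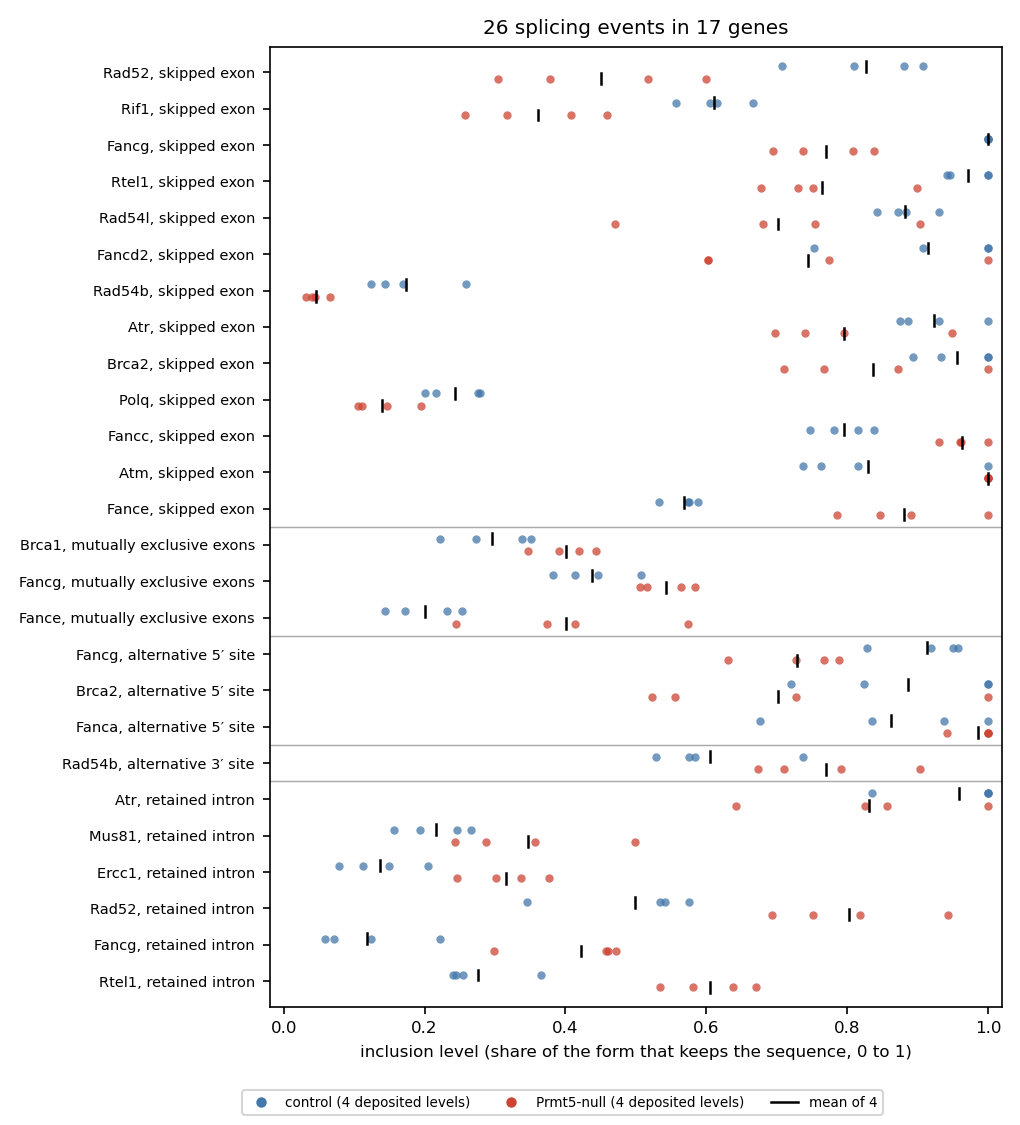
Inclusion level (horizontal axis, 0 to 1) of each of the 26 events in 17 genes, with 4 deposited control levels, 4 deposited Prmt5-null levels and their means as black bars. The retained introns of Rtel1, Fancg, Rad52 and Ercc1 and the skipped exons of Rad52, Rif1 and Fancg are among those whose levels lie apart.

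The retained introns are shown first because 5 of the 6 differed in the same direction. Each is given 5′ to 3′ in the direction of its gene, from GENCODE transcripts of the GRCm38 build. Capitals mark the 6 intron bases of the 5′ splice site, the first stop codon in the reading frame of the upstream exon and the AG of the 3′ splice site. The introns lie at chr4:43007115-43007267 (minus strand) for Fancg, chr2:181351700-181351802 (plus strand) for Rtel1, chr7:19355173-19355292 (plus strand) for Ercc1, chr6:119918787-119918925 (plus strand) for Rad52 and chr19:5483559-5483634 (minus strand) for Mus81.
Fancg intron 5: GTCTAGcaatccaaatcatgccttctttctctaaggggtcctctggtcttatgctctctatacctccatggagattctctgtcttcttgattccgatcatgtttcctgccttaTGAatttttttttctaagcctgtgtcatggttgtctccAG
Rtel1 intron 25: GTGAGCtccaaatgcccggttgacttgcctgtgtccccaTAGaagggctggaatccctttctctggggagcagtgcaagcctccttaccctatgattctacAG
Ercc1 intron 8: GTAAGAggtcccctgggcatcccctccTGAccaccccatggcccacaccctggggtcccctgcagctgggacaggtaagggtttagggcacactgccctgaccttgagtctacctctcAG
Rad52 intron 8: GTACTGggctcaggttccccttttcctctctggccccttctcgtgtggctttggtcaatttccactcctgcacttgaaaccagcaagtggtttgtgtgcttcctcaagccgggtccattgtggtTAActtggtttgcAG
Mus81 intron 13: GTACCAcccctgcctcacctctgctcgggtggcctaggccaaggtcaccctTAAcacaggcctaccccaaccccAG

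All 5 introns are short, from 76 bases in Mus81 to 153 in Fancg, and each lies between coding exons. The last 3 exon and first 6 intron bases matched the consensus CAGGTAAGT at 4 of 9 positions in Fancg and Rtel1 and at 5 in Ercc1, Rad52 and Mus81. The deposited Atr intron, described below, matched at 7. Over the 337 retained introns of all genes the median was 6 matches, and 48.4% had 5 or fewer.

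Retention differed most in Rtel1 intron 25. Its 4 levels were 0.245, 0.255, 0.365 and 0.241 in controls and 0.534, 0.671, 0.581 and 0.638 in Prmt5-null samples, and the means were 0.277 and 0.606. The Fancg intron was kept at 0.058, 0.071, 0.124 and 0.222 in controls and 0.461, 0.457, 0.299 and 0.472 without Prmt5, with means of 0.119 and 0.422. The Rad52 intron was kept often even in controls, at 0.541, 0.345, 0.575 and 0.535, and at 0.752, 0.819, 0.694 and 0.944 without Prmt5 (means 0.499 and 0.802). For these 3 introns all Prmt5-null levels were above all control levels.

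The Ercc1 intron was kept at 0.079, 0.113, 0.205 and 0.150 in controls and 0.301, 0.337, 0.246 and 0.377 in Prmt5-null samples, also apart (means 0.137 and 0.315). The Mus81 intron was kept at 0.157, 0.246, 0.194 and 0.266 in controls and 0.288, 0.357, 0.243 and 0.499 without Prmt5, with overlap (means 0.216 and 0.347). The deposited Atr intron went the other way on junction and intron reads, with levels of 1.000, 0.836, 1.000 and 1.000 in controls and 0.826, 0.856, 1.000 and 0.642 without Prmt5. That call rested on few spliced reads, 1 in controls and 10 in Prmt5-null, and on junction reads alone the difference was 0.007. Reads for inclusion numbered 288 in controls and 554 in Prmt5-null, so the lower level did not reflect fewer reads on the interval. The Atr interval of 1648 bases also holds 179 coding bases of the longest Atr transcript, so it is not an intron of every form.

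With the intron kept, the annotated reading frame ran into a stop inside the intron in all 5 genes. The Fancg frame ended after 258 of 623 codons and the Rtel1 frame after 768 of 1209. The frames of Rad52, Mus81 and Ercc1 ended after 290 of 420, 484 of 551 and 267 of 298 codons. Each such stop lay upstream of the last exon junction, by 162 bases in Ercc1 and up to 1262 in Rtel1. These lengths were computed from the annotation, and protein was not measured.

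The 4 skipped exons with the largest differences are shown next, again 5′ to 3′ from GENCODE transcripts of GRCm38, with the last 3 bases, the exonic end of the 5′ splice site, in capitals. They lie at chr6:119913899-119913992 (plus strand) for Rad52, chr2:52116668-52116745 (plus strand) for Rif1, chr4:43009148-43009279 (minus strand) for Fancg and chr17:28317158-28317223 (plus strand) for Fance, all within coding sequence.
Rad52 exon 4: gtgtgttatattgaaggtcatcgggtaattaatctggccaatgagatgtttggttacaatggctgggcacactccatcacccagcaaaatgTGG
Rif1 exon 32: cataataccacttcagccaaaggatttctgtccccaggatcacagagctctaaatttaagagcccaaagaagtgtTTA
Fancg exon 3: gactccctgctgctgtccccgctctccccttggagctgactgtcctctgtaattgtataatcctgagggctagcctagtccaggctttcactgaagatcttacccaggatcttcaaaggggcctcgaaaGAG
Fance exon 4: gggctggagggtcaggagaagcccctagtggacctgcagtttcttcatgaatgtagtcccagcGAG

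Inclusion of Rad52 exon 4 was 0.810, 0.708, 0.908 and 0.881 in controls and 0.600, 0.304, 0.518 and 0.378 in Prmt5-null samples, without overlap, and its means were 0.827 and 0.450. The exon has 94 bases, so that skipping it shifts the frame, which then stopped after 80 of 420 codons. Rif1 exon 32 was included at 0.616, 0.666, 0.557 and 0.606 with Prmt5 and 0.459, 0.258, 0.408 and 0.317 without it (means 0.611 and 0.360), on 781 and 641 reads in all. It has 78 bases, and its loss keeps the frame at 2400 of 2426 codons.

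Fancg exon 3 was included in all reads of controls and at 0.737, 0.695, 0.808 and 0.838 without Prmt5, with a mean of 0.769. No skipping read was seen among 151 control reads, which allows up to 1.99% of reads, whereas 18 were seen among 138 Prmt5-null reads. Its 132 bases keep the frame, at 579 of 623 codons.

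Fance exon 4 went the other way. Its inclusion was 0.575, 0.533, 0.574 and 0.589 in controls and 1.000, 0.891, 0.847 and 0.785 without Prmt5, all Prmt5-null levels being higher (means 0.568 and 0.881). The same exon of 66 bases was the upstream exon of the Fance mutually exclusive pair, so that these 2 events are not independent. Levels of the pair were 0.253, 0.172, 0.144 and 0.232 in controls and 0.574, 0.414, 0.374 and 0.244 without Prmt5, with overlap.

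Exons of Rtel1, Rad54b, Polq and Fancc also had levels that lay apart. Rtel1 exon 16 was included at 0.946, 1.000, 0.942 and 1.000 in controls and 0.900, 0.751, 0.678 and 0.730 in Prmt5-null samples, on as few as 9 reads in a sample. The loss of its 82 bases ended the frame after 425 of 1209 codons. A Rad54b exon of 46 bases, annotated only in a noncoding transcript, was included at 0.144, 0.259, 0.124 and 0.170 with Prmt5 and 0.066, 0.040, 0.045 and 0.032 without it. A Polq exon of 96 bases that belongs to no protein-coding transcript was included at 0.201, 0.276, 0.217 and 0.279 in controls and 0.147, 0.111, 0.195 and 0.106 without Prmt5. In both genes the rarer form, which keeps the extra exon, was less frequent without Prmt5. Fancc exon 2, which holds 165 coding bases, was included at 0.747, 0.816, 0.838 and 0.782 in controls and 0.962, 1.000, 0.931 and 0.960 in Prmt5-null samples, so that its skipping was less frequent without Prmt5.

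In 5 further skipped exons the levels of the genotypes overlapped or touched. Rad54l exon 9 (125 bases) was included at 0.930, 0.842, 0.873 and 0.884 in controls and 0.904, 0.470, 0.681 and 0.755 without Prmt5, and its skipping ended the frame after 262 of 747 codons. Atr exon 20 (94 bases) was included at 0.930, 1.000, 0.886 and 0.875 in controls and 0.796, 0.698, 0.949 and 0.740 without Prmt5, and its skipping ended the frame after 1257 of 2641 codons. Brca2 exon 7 (112 bases) was included at 0.894, 0.933, 1.000 and 1.000 in controls and 0.710, 0.872, 1.000 and 0.767 without Prmt5. The loss of exon 7 alone ended the frame after 174 of 3329 codons. Whether the reads that skip it also leave out the exon before it, as in the Brca2 splice site event below, was not tested. Such a loss of 153 coding bases does not shift the frame. In each of these 3 genes 1 Prmt5-null sample was at or above a control level.

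Fancd2 exon 39 (39 bases) was included at 1.000, 1.000, 0.908 and 0.753 in controls and 0.603, 0.603, 1.000 and 0.774 without Prmt5, on as few as 5 reads in a sample. An Atm exon of 30 bases, found with these ends only in a short Atm transcript of 6 exons, was also listed. Whether a longer exon of another Atm transcript holds the same bases was not examined. Its inclusion was 0.738, 0.763, 0.816 and 1.000 in controls and 1.000 in every Prmt5-null sample. The latter rested on 55 reads, and 0 skipping reads allow up to 5.45%.

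**Figure D4:**
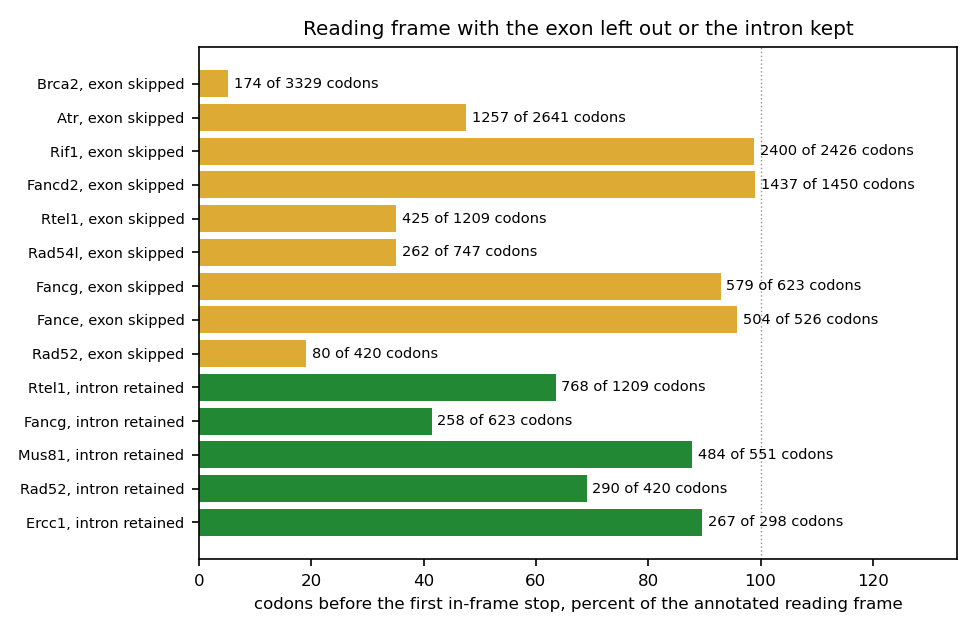
Codons before the first in-frame stop when an exon is skipped (9 exons, yellow) or an intron retained (5 introns, green), as percent of the annotated reading frame (horizontal axis) with the codon counts printed at the bars. Skipping of the single exon shortens the frame most in Brca2, to 174 of 3329 codons, and least in Fancd2 and Rif1. The Brca2 bar holds only where exon 7 alone is lost. The Fance exon is the only 1 shown whose skipping was less frequent in Prmt5-null.

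The remaining events concerned exon choice and splice sites. For a pair of mutually exclusive exons, the level sets the reads of the upstream exon against those of the downstream exon. It was higher without Prmt5 in Brca1, at 0.273, 0.222, 0.339 and 0.351 in controls and 0.444, 0.420, 0.347 and 0.391 in Prmt5-null, and in Fancg, at 0.446, 0.383, 0.507 and 0.413 in controls and 0.516, 0.564, 0.506 and 0.584 without Prmt5. The levels of both overlapped. Both exons of each pair follow each other in the reference transcript (exons 2 and 3 of Brca1, exons 12 and 13 of Fancg). The same holds for exons 4 and 5 of the Fance pair above. None of these levels was therefore read as a choice of 1 exon.

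The alternative 5′ splice site events need the same care. In all 3 genes the longer form is known from 1 transcript annotated as retained intron and no coding one, and its 5′ splice site is that of a reference exon further on, exon 6 in Fancg, exon 5 in Fanca and exon 7 in Brca2. The shorter form joins the exon before directly to the exon after, leaving that reference exon out, and in Brca2 exon 6 as well. A high level therefore counts reads at a 5′ splice site that the reference transcript also uses, and was not read as a transcript that keeps the intron. In Fancg the level was 0.950, 0.957, 0.829 and 0.919 in controls and 0.727, 0.767, 0.788 and 0.631 without Prmt5, which lay apart, with 9 and 29 reads that left exon 6 of 131 bases out.

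In Brca2 the levels were 0.721, 0.824, 1.000 and 1.000 in controls and 0.556, 0.727, 1.000 and 0.523 without Prmt5. They rested on 4 and 8 skipping reads, the same numbers as for Brca2 exon 7. Whether these are the same reads was not tested. The 153 coding bases that the shorter Brca2 form leaves out do not shift the frame. In Fanca the levels were 0.677, 0.938, 0.835 and 1.000 in controls and 1.000, 1.000, 1.000 and 0.942 without Prmt5. On junction reads alone the Fanca difference was 0.095, under the limit. The longer form at a Rad54b 3′ splice site had levels of 0.737, 0.575, 0.584 and 0.528 in controls and 0.710, 0.673, 0.792 and 0.903 without Prmt5, with overlap. The Fanca and Brca2 events thus rested on few reads of the shorter form.

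The last comparison set the levels of the transcripts beside their splicing. Of the 8 genes that were lower, 7 carried an event, the exception being Fancl, and Nbn, the gene that was higher, carried none. Among these 7, only Rtel1, Ercc1 and Fance had an event whose levels lay apart. The Atm event had as few as 9 reads in a sample, and the Brca2 events as few as 14 and 18. Inclusion of the Fance and Atm skipped exons was higher in Prmt5-null. Of the 32 genes not past the test, 10 carried an event. The median log2 fold change was -0.27 in the 17 genes with an event and -0.016 in the 24 without. Among all genes with a mean above 50, 16.7% of the lower, 10.4% of the higher and 10.9% of the others carried an event. Rtel1 and Ercc1 combined a lower level with higher intron retention, while the mean retention of the Atr intron differed by -0.128, or by 0.007 on junction reads alone. Rad52 and Fancg had large splicing differences with levels that did not pass the test. The 41 genes had a median mean count of 2053, beside 706 for all genes tested, and the part of read depth and exon number in the counts of events was not tested.

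**Figure D5:**
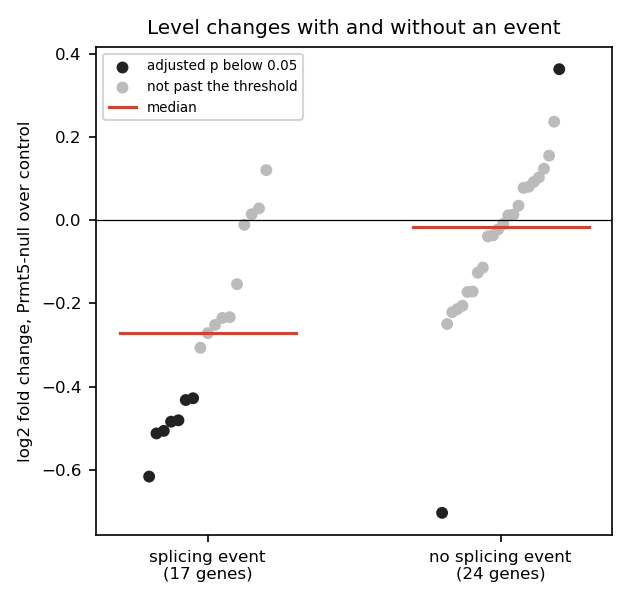
Log2 fold change (vertical axis, Prmt5-null over control) of the 17 genes with and the 24 genes without a splicing event, dark where the adjusted p was below 0.05, with the median of each set as a red line. The medians are at -0.27 and -0.016.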

How the data were processed

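Gene levels and splicing were measured in 4 Prmt5-null and 4 control libraries, 4 independent samples per genotype, made from rRNA-depleted RNA with a stranded kit. Per the labels and the study's methods, the authors trimmed reads with Trimmomatic 0.32, aligned them with STAR 2.3.0e to mm10 (GRCm38), assigned unique alignments to Ensembl exons (featureCounts 1.4.4) and divided the counts by DESeq2 1.14.1 size factors. The strand setting of the counting was not given in the sources used here. The deposited gene table holds these normalized counts, a signal per gene on a linear scale. Dividing by the value of 1 read gave whole reads (within 0.01) for 100% of values. The deposited splicing tables hold, for each event, other values: lists of inclusion levels and reads made by the authors with rMATS. Their p-value, FDR and difference columns, and their own comparison results, were not used.

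The 16250 genes whose mean reached 10 entered limma 3.58.1 (R 4.3.3), fitted to log2(normalized count + 1) for 2 groups, with an intensity trend and Benjamini-Hochberg adjustment over all of them. Fold changes are on that scale, which understates the change of low genes. edgeR 4.0.16 and DESeq2 1.42.0 on the recovered reads were alternatives. The study names 2 experiments with 2 libraries of each genotype, but the labels do not tie libraries to them, so the experiment was entered only as an alternative over its 18 possible placements. The script was tested on simulated counts. The 208 inclusion levels of the members were recomputed from the deposited reads and matched within 0.002. Reading frames used the coding transcript with the longest coding sequence of GENCODE, on GRCm38. Values were given in full for genes past 1.5-fold or the test, those with an event, and the highest and lowest per kb of exon. The 41 genes, the other lists and the tests were chosen with earlier results of these data known. Intervals and limits on reads cover counting error only. Code in Python 3.11.15.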

Additional observations from a re-analysis of the deposited data

Results flagged for a closer look

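In groups of 4, the gap of the highest or lowest sample to its neighbour was set against Dixon's limit of 0.829 in 136 groups (84 of counts and 52 of inclusion levels), and chance alone passes about 1 in 20. Among counts, Nbn in control library CTRL-10370 stood at 2501 while the other controls were between 2172 and 2228. Among inclusion levels, 4 groups passed. The Fancg retained intron had 1 Prmt5-null level at 0.299, the others being 0.457 to 0.472. The Rtel1 retained intron had 1 control level at 0.365, the others being 0.241 to 0.255. The Fanca alternative 5′ site had 1 Prmt5-null level at 0.942 and the Atr retained intron 1 control level at 0.836, with the others at 1.000 in both.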

How the results depend on the processing

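Of the 9 genes that passed the test, Fancl, Brca2, Atr, Ercc1, Rad54l and Nbn passed under all 17 alternatives apart from the placements of the experiment, whereas Atm passed under 11, Rtel1 under 12 and Fance under 13. Leaving out 1 library gave 6 to 9 genes, while 1374 to 2371 of all genes passed, beside 2249 in the main fit. At 1.5-fold the count was 1 to 5 with 1 library left out, lowest without PRMT5-10770 or CTRL-10597 and highest without PRMT5-10618. Of the other pathway genes, 2 to 5 passed with 1 library left out, lowest without PRMT5-10771. With no intensity trend 7 of the 41 genes passed, with edgeR 9 and with DESeq2 10. Calls over all genes were 1785, 2274 and 3075 in the same order. With the experiment as a block, 8 to 10 passed over the 18 placements, without Atm in 1, with Mus81 in 3 and with Rif1 in 1. Over these placements 1733 to 3003 of all genes passed. Splicing counts fell to 5 genes and 6 events at a difference of at least 0.25 (against 3.15% of all genes), and to 9 genes and 13 events where the levels lay apart. The Atr retained intron turned to 0.007 on junction reads alone. Signs of values close to 0 turned: Fancd2 to 0.0014 with quantile normalization, and with 1 library left out Fancd2 ranged from -0.062 to 0.031, Polq from -0.067 to 0.11 and Brca1 from -0.0098 to 0.068. No paired analysis was possible because the groups share no replicate numbers. Depth limits the events on few reads, as in Fancd2 (5), Rtel1 exon 16 and Atm (9).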
